A study of Homo sapiens with 65 samples.

Results

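Wild-type cardioids were compared between days 2.5 and 4.5 of differentiation. Cardioids are heart-like aggregates grown from human pluripotent stem cells, here of the induced pluripotent line WTC-11 and of the left-ventricular kind. The comparison holds the 6 libraries whose titles give wild type (WT) at day 4.5 and the 6 that give WT at day 2.5 in the genotype arm, 12 of the 65 libraries of the series. The same 6 replicate names occur at both days: WT_R1, WT_R2, WT_TU_R1, WT_TU_R2, cl43_WT_UT and TNT2. What the line names other than WT stand for is not given in the labels. Each library pools 8 cardioids, and the labels speak of biological replicates. Reads come from a 3′ RNA-seq kit (QuantSeq FWD), which samples the end of polyadenylated transcripts.

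Both groups had the same culture history up to day 2.5. Mesoderm was induced with FGF2, activin A, BMP4, the GSK3 inhibitor CHIR99021 and the PI3K inhibitor LY294002, and cells were reseeded as aggregates at day 1.5 in a medium with BMP4, FGF2, insulin, retinoic acid and C59, which blocks the secretion of WNT proteins. A ROCK inhibitor was present from day 1.5 and withdrawn at day 2.5. The patterning medium was exchanged for another at day 3.5, so day 4.5 libraries differ from day 2.5 libraries in age, in the withdrawal of the inhibitor and in medium, and these cannot be told apart. The label gives the cell type of every library as cardiac progenitor. Libraries labelled untreated in the enzyme arm (3 at each day, of lines named TNNI1, WT and TNNT2) and libraries labelled HAS2 knockout (KO, 6 at each day) serve below as further measurements of the same interval.

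In the embryo, mesoderm leaves the primitive streak under NODAL, WNT, BMP and FGF signals. The cells that go on to form the heart switch on transcription factors such as NKX2-5, TBX5 and MEF2C, and then the genes of the sarcomere, in which myosin thick filaments pull on actin thin filaments anchored at the Z-disc. Each beat is set off by calcium released from the sarcoplasmic reticulum.

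Total counts per library were 1401841 to 3241683 at day 2.5 and 1517055 to 3201280 at day 4.5. Library numbers fall into 3 blocks, called runs A, B and C here, and each run holds 2 libraries of each day. The 4 libraries of run A (WT_R1 and WT_TU_R1) stand apart from the others. Within a day, a pair of 1 run A library and 1 other library gave a chi-square over genes of 25.6 to 43.7 per degree of freedom (16 pairs), where counting error alone gives about 1, while pairs within runs B and C gave 2.29 to 9.12 (12 pairs). The level in run A differed from that in runs B and C for 57.1% of 12877 genes (edgeR, adjusted p under 0.05). The size of the step itself differed between run A and the others for 0 of those genes after adjustment, and for 984 (7.64%) at an unadjusted p under 0.05. Counts without the run A libraries are given for all genes and beside list counts where they differ by more than 1.5 times, and beside some others.

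Of 13797 genes tested, 4756 (34.5%) differed between the days at an adjusted p under 0.05, the threshold for every call below. Of these, 2562 (18.6% of genes tested) were higher at day 4.5 and 2194 (15.9%) lower, and 3197 (23.2%) differed at least 2-fold. For 2437 genes (17.7%) the 6 values of one day lay wholly above the 6 of the other, with day 4.5 above for 8.97% of genes and below for 8.7%. Without run A 3677 of 13616 genes tested were called, 2004 higher (14.7%) and 1673 lower (12.3%). With replicate names as a block, which compares the days within each name, 3060 of 11051 genes tested were higher (27.7%) and 2752 lower (24.9%). The median log2 fold change over all genes tested was 0.03. In pooled tissue, more cells of a type and more RNA per cell cannot be told apart. Genes silent at one day enter the test only through the other, so the counts of list members given below describe the lists and test nothing. They are to be read beside the shares over all genes given here for the same fit. Counts near those shares do not set a list apart. Of 160 genes named, 10 overlap another gene on the same strand (CCND2, GPI, L1CAM, PDGFRA, PRC1, RRM2, TDGF1, TNNI3, TNNT2 and TTN) and 23 one on the other strand, among them ACTA2, FADS1, KRT8, PLN and POU5F1. Whether the counting used strand is not given in the sources used here, so reads of these pairs could be shared and their values are uncertain to that extent.

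Among protein-coding genes that were called, did not overlap between the days and had a mean of at least 10 CPM at 1 of them, the 10 largest rises by the fit held many genes of muscle. First was VCAM1, a cell adhesion molecule of the early myocardium, which had no count in any day 2.5 library and 60.6 to 292 CPM (median 121) at day 4.5, at least 101-fold higher when each day 2.5 library is set at 3 counts (adjusted p 5.81e-12). MYH6, the alpha cardiac myosin heavy chain (chromosome 14, 23381990 to 23408277 on GRCh38), had 0 to 8.67 CPM (median 2.85) at day 2.5 and 4602 to 8600 CPM (median 7201) at day 4.5 (log2 fold change 11.14, SE 0.55, adjusted p 1.11e-18). SMPX, a small protein of muscle attachment sites, had 0 to 0.367 CPM (median 0) at day 2.5 and 56.7 to 289 CPM (median 180.4) at day 4.5, where the day 2.5 libraries together hold 1 count (adjusted p 9.22e-14). TNNT2, cardiac troponin T, had 0.308 to 9.34 CPM (median 3.18) at day 2.5 and 3505 to 6586 CPM (median 5203) at day 4.5 (log2 fold change 10.27, SE 0.498, adjusted p 1.09e-18). ASB2, CSRP3 and FSD2, also known from striated muscle, had no count at day 2.5 and lay at least 44.3, 42.6 and 40.0-fold higher at day 4.5. HSPB7, ACTA2 and MYOM1 complete these 10 rises.

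The 10 largest falls among genes chosen in the same way were a mixed group. L1CAM, a neural cell adhesion molecule that stem cells also carry, had 25.5 to 45.7 CPM (median 30.7) at day 2.5 and no count at day 4.5, at least 20.4-fold lower (adjusted p 3.07e-12). ZFP42, a stem cell zinc finger factor also known as REX1, went from 18.9 to 48.8 CPM (median 39.6) to 1 count in the 6 day 4.5 libraries together (adjusted p 2.02e-14). CYP1B1, a cytochrome P450 that takes part in retinoid metabolism, had 39.6 to 139.6 CPM (median 74.2) at day 2.5 and 0 to 2.89 CPM (median 0.655) at day 4.5 (log2 fold change −6.09, SE 0.62, adjusted p 2.39e-10). TMEM132B, with 15.8 to 67.7 CPM (median 30.3) at day 2.5 and 0 to 1.16 CPM (median 0) at day 4.5, and CD177, with 11.2 to 53.1 CPM (median 25.6) at day 2.5 and 0 to 0.626 CPM (median 0) at day 4.5, fell as well. ANPEP, CIROP, SPOCK3, MUC4 and SAMD3 complete these 10 falls.

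**Figure D1:**
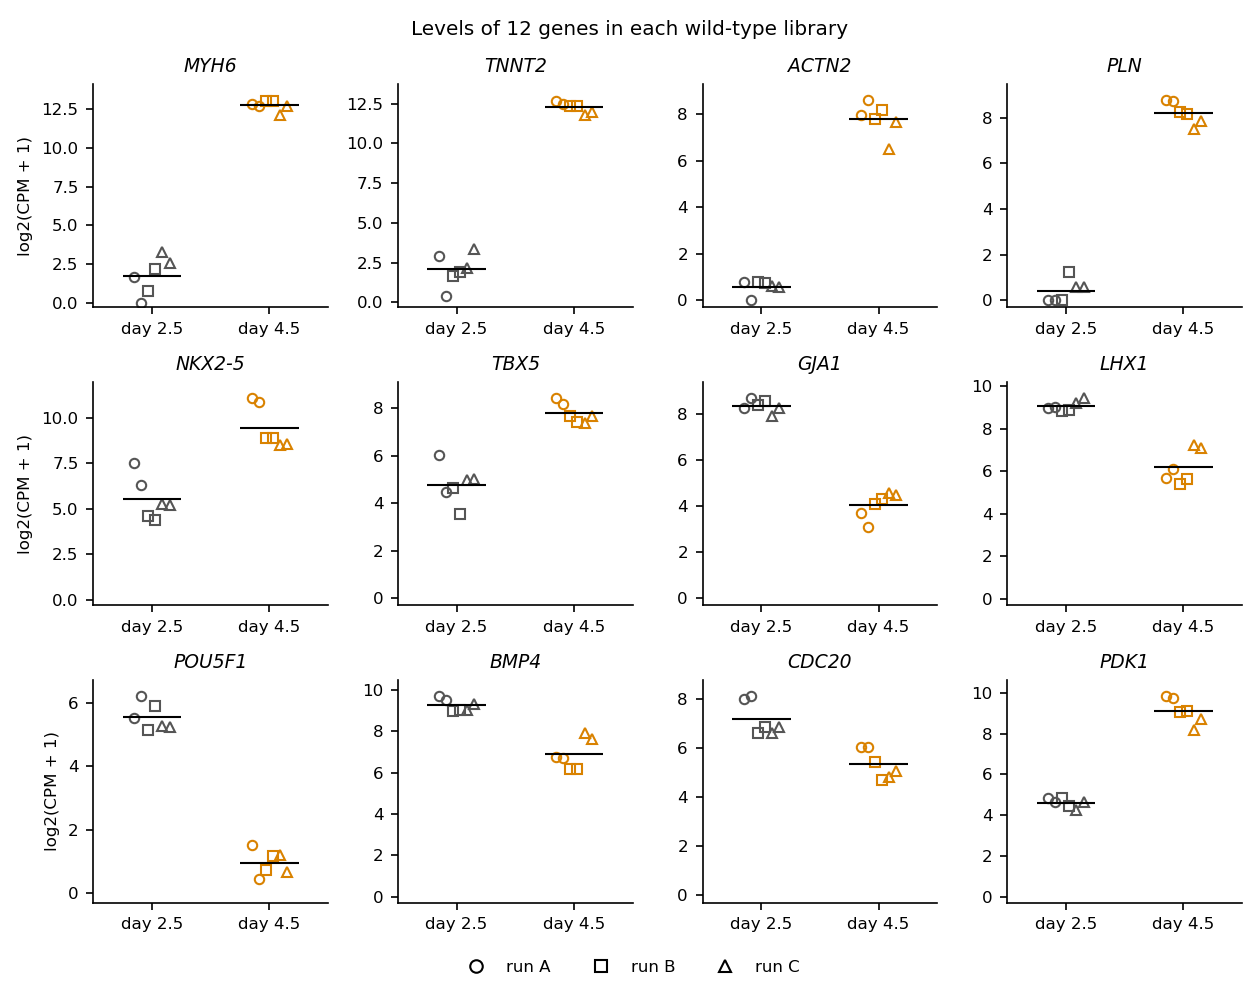
Levels of 12 genes in each of the 12 wild-type libraries, as log2(CPM + 1) on the vertical axis, by day on the horizontal axis. Symbols mark the runs and horizontal bars the means, and in all 12 panels the libraries of one day lie wholly above those of the other.

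Sarcomere genes rose across every part of the contractile unit. Of the thick filament list 11 of 11 tested genes rose (14 on the list), of the thin filament list 11 of 11, and of the Z-disc and costamere list 20 of 23, with no member of the 3 lists falling. Median log2 fold changes were 5.98, 4.64 and 5.95, or 5.502, 4.64 and 4.78 with genes that have no count at one day set at their bound. Without run A, 11, 11 and 19 members rose.

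Among thick filament genes TTN, the giant spring of the sarcomere, was already present at day 2.5. It had 218 to 2637 CPM (median 2208) at day 2.5 and 3459 to 34626 CPM (median 23698) at day 4.5 (log2 fold change 3.62, SE 0.64, adjusted p 1.44e-05). At both days the run A libraries held the lowest TTN levels, 325 and 218 CPM at day 2.5 and 3459 and 3527 CPM at day 4.5, so that the low end of day 4.5 comes close to the high end of day 2.5. Its step was as large without them (log2 fold change 3.61). MYBPC3, myosin-binding protein C, had 3.06 to 10.5 CPM (median 4.41) at day 2.5 and 544 to 1245 CPM (median 886) at day 4.5 (log2 fold change 7.41, SE 0.39, adjusted p 3.43e-18). MYH7, the beta heavy chain that predominates in the adult human ventricle, had no count at day 2.5 and 11.9 to 47.4 CPM (median 24.2) at day 4.5, at least 16.7-fold higher. Both heavy chains thus rose over the interval. MYL7, the regulatory light chain of atrial and early myocardium, had 51.6 to 136 CPM (median 93.8) at day 2.5 and 1693 to 5466 CPM (median 4325) at day 4.5 (log2 fold change 5.502, SE 0.47, adjusted p 2.48e-12). Its ventricular counterpart MYL2 had no count in any of the 12 libraries.

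Troponin and actin genes of the thin filament followed the same direction. TNNI1, the troponin I of the fetal heart and slow muscle, had 13.3 to 47.4 CPM (median 19.7) at day 2.5 and 1405 to 5089 CPM (median 2031) at day 4.5 (log2 fold change 6.90, SE 0.39, adjusted p 5.75e-15). TNNI3, the troponin I of the adult heart, had 0 to 3.08 CPM (median 0.246) at day 2.5 and 16.5 to 38.7 CPM (median 30.7) at day 4.5 (log2 fold change 4.64, SE 0.72, adjusted p 3.05e-06). TNNC1, the calcium sensor of the complex, rose from a median of 4.99 to 388 CPM (log2 fold change 6.31). TPM1, a tropomyosin, stood at 118 to 609.8 CPM (median 373) at day 2.5 and 4178 to 8372 CPM (median 6918) at day 4.5 (log2 fold change 4.18, SE 0.31, adjusted p 3.82e-14). ACTC1, the cardiac actin, had 86.3 to 274 CPM (median 109) at day 2.5 and 1520 to 5859 CPM (median 3761) at day 4.5 (log2 fold change 4.85, SE 0.44, adjusted p 1.5e-11), and is named after its values were seen because its promoter is shown. The day 4.5 libraries lay above all day 2.5 libraries for each of these genes.

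At the Z-disc, ACTN2, the actinin that crosslinks actin filaments there, had 0 to 0.734 CPM (median 0.604) at day 2.5 and 91.6 to 387 CPM (median 237) at day 4.5 (log2 fold change 8.85, SE 0.58, adjusted p 1.92e-15). LDB3, a Z-disc scaffold, had 0.492 to 2.55 CPM (median 1.26) at day 2.5 and 251 to 989 CPM (median 709) at day 4.5 (log2 fold change 8.98, SE 0.58, adjusted p 1.31e-15). NEXN and PDLIM5 started higher, at medians of 151 and 49.7 CPM, and rose by 2.68 and 4.06 on the log2 scale. The library cl43_WT_UT held the lowest day 4.5 level of MYH6, MYL7, SMPX, HSPB7 and ACTN2, for example 4602 CPM of MYH6, and its summed thin filament level was 16128 CPM against 20917 to 24604 CPM in the other 5.

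Promoter sequence of such genes is shown for its matches to 2 motifs of muscle regulators, out of 11 motifs that were searched for in all promoters. They are the CArG box, bound by the serum response factor SRF, and the site of the MEF2 factors. Promoters of 300 bases were taken from RefSeq (GRCh38.p14) for 71 of the 100 genes with the largest rises and 76 of the 100 with the largest falls. Below, the last 120 bases before the start of transcription are printed 5′ to 3′ on the strand of the gene, with the motif in capitals. In ACTC1 the capitals mark a CArG box from 109 to 100 bases before the start and a TATA box (TATAAA).
MYL7, CArG box 61 to 52 bases before the start, chr7:44141333-44141452, minus strand: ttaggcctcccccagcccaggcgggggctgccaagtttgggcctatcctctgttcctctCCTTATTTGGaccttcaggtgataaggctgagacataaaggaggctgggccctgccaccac
ACTC1, CArG box and TATA box, chr15:34795550-34795669, minus strand: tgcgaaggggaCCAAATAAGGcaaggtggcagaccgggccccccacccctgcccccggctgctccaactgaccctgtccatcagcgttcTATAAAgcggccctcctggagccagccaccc
SMPX, MEF2 site 93 to 84 bases before the start, chrX:21758117-21758236, minus strand: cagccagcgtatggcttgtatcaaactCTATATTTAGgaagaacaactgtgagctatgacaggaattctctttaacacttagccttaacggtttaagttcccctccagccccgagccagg
MYBPC3, MEF2 site 94 to 85 bases before the start, chr11:47352703-47352822, minus strand: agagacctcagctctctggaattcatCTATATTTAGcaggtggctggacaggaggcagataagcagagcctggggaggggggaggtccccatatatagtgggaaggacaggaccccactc

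A CArG box on either strand was found in 6 of the 71 promoters of rising genes (8.45%), in 0 of 76 of falling genes, in 1.18% of the 9899 promoters of protein-coding genes tested and in 1.29% of all 27305 promoters. The 6 genes were ASB2, MYOM1, LDB3, ACTA1, RASSF5 and MYL7. A MEF2 site was found in 10 of 71 (14.1%), 0 of 76, 1.03% and 1.91% in the same order, among them in SMPX, HSPB7, XIRP1, MYOZ2 and MYBPC3. TATAAA was found in 19.7%, 3.95%, 5.39% and 12%. For motifs of other regulators the shares of rising, falling and tested genes were 15.5%, 6.58% and 4.96% for the GATA site (AGATAA), 22.5%, 11.8% and 10.6% for the TEAD site (GGAATG) and 11.3%, 6.58% and 6.97% for the NKX2-5 site (TNAAGTG). They were 14.1%, 13.2% and 8.58% for the TCF/LEF site (CTTTGA), 11.3%, 11.8% and 8.9% for the E-box of HAND and TWIST (CATCTG) and 2.82%, 2.63% and 2.84% for the T-box site (GGTGTGA). The CCAAT box was in 28.2%, 28.9% and 36.9%, and TTTGAA in 14.1%, 15.8% and 9.6%. Over all promoters the shares were 10.5%, 14% and 10.3% for the GATA, TEAD and NKX2-5 sites. For the TCF/LEF site, the E-box and the T-box site they were 13.1%, 14.8% and 3.43%, and for CCAAT and TTTGAA 35.7% and 15.4%. The median GC content of the promoters was 57% for rising genes, 64.8% for falling genes and 65.7% for genes tested, and its part in these shares was not tested. A match of letters is a description and says nothing of whether a factor binds there.

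**Figure D2:**
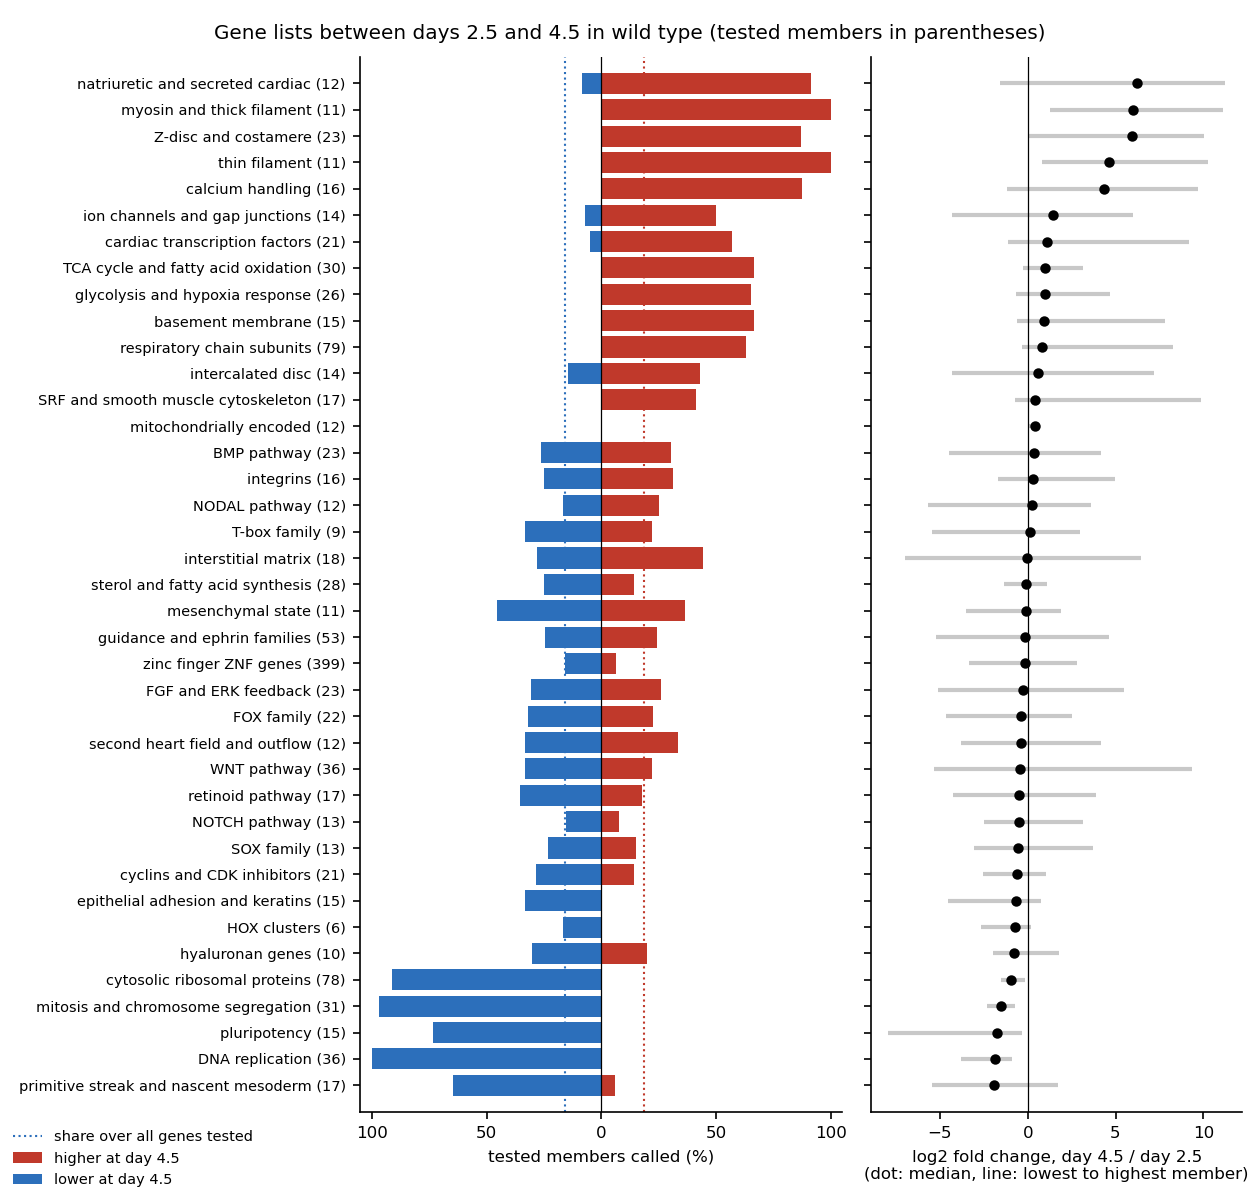
Gene lists ordered by median log2 fold change, with the number of tested members in parentheses. Bars on the left give the percentage of tested members higher (red) or lower (blue) at day 4.5, dotted lines the same over all genes tested (18.6% and 15.9%), and on the right dots mark medians and lines the range of members. Contractile, calcium handling and secreted cardiac lists lie at the top, and ribosomal, mitotic, replication, stem cell and streak lists at the bottom.

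Genes of the calcium cycle rose with the sarcomere. Of 16 tested members 14 rose and 0 fell, 13 rose without run A and 2 fell with replicate names as a block, with a median log2 fold change of 4.35. PLN, phospholamban, which restrains the calcium pump of the sarcoplasmic reticulum, had 0 to 1.4 CPM (median 0.246) at day 2.5 and 184 to 433 CPM (median 296) at day 4.5 (log2 fold change 9.71, SE 0.500, adjusted p 2.07e-14). SLC8A1, the sodium-calcium exchanger of the surface membrane, had 0 to 6.28 CPM (median 2.35) at day 2.5 and 591 to 1215 CPM (median 971) at day 4.5 (log2 fold change 8.62, SE 0.56, adjusted p 1.38e-15). RYR2, the release channel, had 5.55 to 36.4 CPM (median 18) at day 2.5 and 417 to 1137 CPM (median 884) at day 4.5 (log2 fold change 5.46, SE 0.45, adjusted p 1.09e-12). The days did not overlap for any of the 3. CACNA1D, a pore subunit of L-type calcium channels, rose from a median of 2.51 to 160.1 CPM. ITPR2, an inositol trisphosphate receptor that releases calcium in other settings, was not called, with 11 to 101 CPM (median 84.7) at day 2.5 and 1.8 to 53.1 CPM (median 32) at day 4.5, and was lower with replicate names as a block (adjusted p 2.49e-05).

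Ion channels and junctions were divided. Of 14 tested channel and gap junction genes 7 rose and 1 fell. KCNIP2, a partner of the channels of early repolarisation, had 0 to 3.7 CPM (median 1.19) at day 2.5 and 26.6 to 144 CPM (median 39.3) at day 4.5 (log2 fold change 4.95, SE 0.61, adjusted p 1.8e-08). KCNJ5, a subunit of the potassium channel opened by acetylcholine, rose from a median of 0.511 to 29.4 CPM (log2 fold change 5.997). HCN4, the pacemaker channel, had 12.1 to 76 CPM (median 14.9) at day 2.5 and 17.8 to 706 CPM (median 63.9) at day 4.5 and its days overlapped. The high end came from run A, with 326 and 706 CPM, and its rise (log2 fold change 2.91, SE 0.74, adjusted p 0.00186) was not called without run A (log2 fold change 1.68). GJA1 moved the other way. This gene encodes connexin 43, the main gap junction protein of working ventricle, and it had 245 to 413 CPM (median 323) at day 2.5 and 7.56 to 23.1 CPM (median 17.5) at day 4.5, the lowest day 2.5 library lying far above the highest day 4.5 library (log2 fold change −4.31, SE 0.24, adjusted p 3.34e-17).

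At the intercalated disc, the contact between heart muscle cells, 6 of 14 tested genes rose and 2 fell. CTNNA3, the alpha-T catenin of heart muscle, had 0 to 0.983 CPM (median 0.183) at day 2.5 and 41.5 to 72.3 CPM (median 50.0) at day 4.5 (log2 fold change 7.20, SE 0.500, adjusted p 8.8e-15). The desmosome genes PKP2 and DSP had medians of 28.3 and 307 CPM at day 2.5 and 118 and 1190 CPM at day 4.5, and rose by 2.15 and 2.15 on the log2 scale. CDH2, N-cadherin, had 116 to 287 CPM (median 197) at day 2.5 and 494 to 803 CPM (median 698) at day 4.5 (log2 fold change 1.86, SE 0.20, adjusted p 4.29e-10). PKP4 fell (log2 fold change −0.70, SE 0.20, adjusted p 0.00439), with GJA1 as the other falling member.

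Of 21 tested cardiac transcription factors 12 rose and 1 fell (0 without run A and 2 with replicate names as a block), at a median log2 fold change of 1.12. NKX2-5, a homeobox factor of all heart chambers, had 19.5 to 179.9 CPM (median 36.8) at day 2.5 and 359 to 2169 CPM (median 476) at day 4.5 (log2 fold change 3.99, SE 0.61, adjusted p 1.66e-06). Its highest libraries at day 4.5 were those of run A (2169 and 1904 CPM against 359 to 484 CPM elsewhere), and without run A the log2 fold change was 3.87. TBX5, a T-box factor of the left ventricle and atria, had 10.5 to 65 CPM (median 26.8) at day 2.5 and 166 to 342 CPM (median 203) at day 4.5 (log2 fold change 2.96, SE 0.32, adjusted p 6.14e-09). MEF2C had 6.48 to 25.5 CPM (median 23.8) at day 2.5 and 325 to 662 CPM (median 543) at day 4.5 (log2 fold change 4.78, SE 0.33, adjusted p 9.48e-15). SMYD1, a muscle methyltransferase that acts with these factors, had 0 to 1.47 CPM (median 0) at day 2.5 and 86.3 to 488 CPM (median 183) at day 4.5 (log2 fold change 9.21, SE 0.60, adjusted p 1.58e-13). None of these 4 overlapped between days. IRX4, a homeobox factor of ventricular muscle, rose from a median of 0.154 to 15 CPM. MYOCD, the cofactor of SRF, had 42 to 446 CPM (median 241) at day 2.5 and 157 to 1174 CPM (median 947) at day 4.5 and overlapped (log2 fold change 1.77, SE 0.47, adjusted p 0.0026). HAND1, a basic helix-loop-helix factor of the left ventricle, had 339.7 to 1150 CPM (median 476) at day 2.5 and 285 to 711 CPM (median 366) at day 4.5 and was not called, though it was lower with replicate names as a block (adjusted p 0.0228).

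Genes of the second heart field, the progenitors that add the outflow tract and right ventricle, moved both ways, with 4 rising and 4 falling of 12 tested, and 3 and 2 of 11 without run A. ISL1, its best known marker, had 84.8 to 116 CPM (median 101) at day 2.5 and 13.3 to 113 CPM (median 36.1) at day 4.5 (log2 fold change −1.15, SE 0.35, adjusted p 0.00834). The 2 lowest day 4.5 values, 18.1 and 13.3 CPM, were those of run A, and without run A the fall was not called (log2 fold change −0.82). FOXC1 and FOXC2, forkhead factors of early mesoderm, fell from medians of 60.1 and 30.6 to 6 and 2.22 CPM (log2 fold changes −3.40 and −3.81). BMP7 and WNT11 were the members that rose most, to medians of 146 and 11.7 CPM. In the T-box family TBX2, a repressor of chamber genes, rose as TBX5 did (log2 fold change 1.85, SE 0.24, adjusted p 5.71e-08), while EOMES and TBX6 fell.

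Secreted and metabolic genes of heart muscle rose, 11 of 12 tested members. NPPB, a natriuretic peptide, had no count at day 2.5 and 3.3 to 38.5 CPM (median 8.62) at day 4.5. It was at least 8.85-fold higher. TECRL, a gene of inherited arrhythmia, had 0 to 4.08 CPM (median 2.34) at day 2.5 and 218 to 493 CPM (median 346) at day 4.5 (log2 fold change 7.39, SE 0.41, adjusted p 4.32e-15). PPARGC1A, the coactivator that drives mitochondrial genes, rose from a median of 0.255 to 73.6 CPM (log2 fold change 7.01). SFRP1 and SFRP5, secreted WNT antagonists of the heart field, went opposite ways. SFRP1 rose, with 119 to 197 CPM (median 149.7) at day 2.5 and 249.7 to 560.1 CPM (median 371) at day 4.5 (log2 fold change 1.44, SE 0.20, adjusted p 1.39e-07), and SFRP5 fell, with 32.1 to 78.3 CPM (median 50.5) at day 2.5 and 11.3 to 20.5 CPM (median 18.7) at day 4.5 (log2 fold change −1.57, SE 0.36, adjusted p 0.000558), neither overlapping between days.

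**Figure D3:**
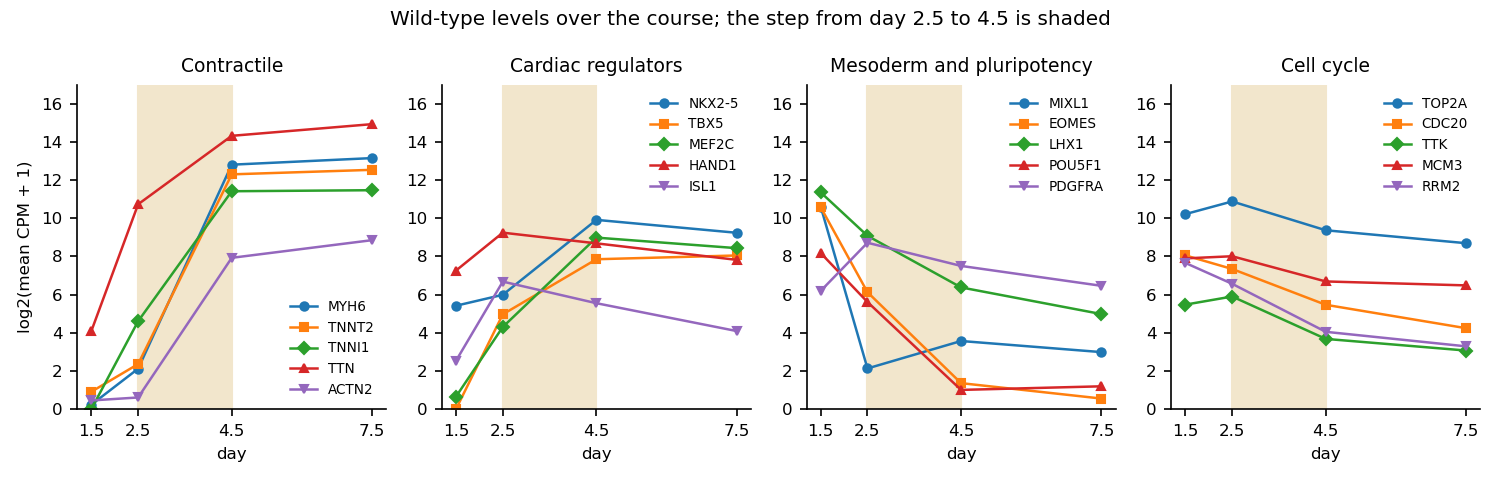
Mean wild-type levels as log2(mean CPM + 1) at days 1.5, 2.5, 4.5 and 7.5 (5, 6, 6 and 3 libraries), with the interval from day 2.5 to 4.5 shaded. MYH6, TNNT2 and ACTN2 have means of at most 4.13 CPM until day 2.5 and 241.5 CPM or more at day 4.5, while EOMES and POU5F1 fall to near 0.

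Among genes of the primitive streak and nascent mesoderm, 11 of 17 tested members fell (9 without run A) and 1 rose. EOMES, a T-box factor of the streak and cardiac mesoderm, had 47.4 to 92.2 CPM (median 67.8) at day 2.5 and 0 to 8.66 CPM (median 0) at day 4.5 (log2 fold change −5.47, SE 0.58, adjusted p 5.64e-10). The library TNT2 alone held more than 1 CPM at day 4.5. LHX1, a homeobox factor of anterior mesoderm, had 456 to 693 CPM (median 512) at day 2.5 and 41 to 148 CPM (median 59.5) at day 4.5 (log2 fold change −2.70, SE 0.23, adjusted p 3.17e-12). At day 1.5 the means of EOMES and LHX1 had been 1525 ± 376 and 2612 ± 242 CPM (SD, n = 5). CFC1, a co-receptor of NODAL, had 91.4 to 179.5 CPM (median 133) at day 2.5 and 1.95 to 9 CPM (median 3.61) at day 4.5 (log2 fold change −4.73, SE 0.42, adjusted p 1.8e-10). Unlike EOMES and LHX1, it had a mean of 0 CPM at day 1.5, so it rose before it fell. PDGFRA, a receptor of cardiac mesoderm, had 328 to 512 CPM (median 424) at day 2.5 and 126 to 284 CPM (median 163) at day 4.5 (log2 fold change −1.17, SE 0.22, adjusted p 3.32e-05). MIXL1 was the member that rose, from 0.51 to 5.14 CPM (median 3.68) to 5.63 to 15 CPM (median 11.3) (log2 fold change 1.70, SE 0.37, adjusted p 0.000296), after 1561 ± 241 CPM at day 1.5 (SD, n = 5), so both days lie far below its earlier level. KDR, the VEGF receptor of mesoderm and endothelium, was not called, with 60.5 to 309.5 CPM (median 204) at day 2.5 and 29.9 to 200.4 CPM (median 98.1) at day 4.5 (adjusted p 0.0501, or 2.59e-06 with replicate names as a block).

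Stem cell genes fell too, 11 of 15 tested members with none rising (median log2 fold change −1.77, or −1.31 with the genes at 0 set at their bound). POU5F1, the factor OCT4, had 34.2 to 73.7 CPM (median 41.6) at day 2.5 and 0.36 to 1.87 CPM (median 0.952) at day 4.5 (log2 fold change −5.39, SE 0.44, adjusted p 8.06e-13). L1TD1, an RNA-binding protein of stem cells, had 73.7 to 253 CPM (median 201) at day 2.5 and 2.81 to 20.8 CPM (median 10.6) at day 4.5 (log2 fold change −4.12, SE 0.42, adjusted p 2.24e-10). LIN28A, which blocks maturation of the let-7 miRNAs, had 558 to 957 CPM (median 615) at day 2.5 and 218 to 336 CPM (median 283) at day 4.5 (log2 fold change −1.31, SE 0.22, adjusted p 9.34e-06). All 3 were lower in every day 4.5 library. Of LIN28A a share remained at day 4.5, and 42.5 ± 3.99 CPM were left at day 7.5 (SD, n = 3). SALL4 fell from a median of 311 to 92.7 CPM.

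Among the signalling pathways no list moved in 1 direction. Over all genes tested 18.6% rose and 15.9% fell, and counts near these shares do not set a list apart. In the NODAL pathway 3 of 12 tested genes rose and 2 fell (1 without run A). LEFTY2, the feedback inhibitor, had 14.3 to 114 CPM (median 35.7) at day 2.5 and 0 to 1.73 CPM (median 0.469) at day 4.5 (log2 fold change −5.68, SE 0.62, adjusted p 1.15e-09), and the activin antagonist follistatin (FST) rose, with 1.23 to 14.3 CPM (median 9.25) at day 2.5 and 66.4 to 164 CPM (median 108) at day 4.5 (log2 fold change 3.61, SE 0.35, adjusted p 7.27e-11). INHBA, a subunit of activin, rose from a median of 1.77 to 11.9 CPM. NODAL itself was at 0 to 2.2 CPM (median 0.747) at day 2.5 and 0 at day 4.5.

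Of 36 tested WNT pathway genes 8 rose and 12 fell. The ligand WNT2, known from the early inflow and chamber myocardium, had 2 counts over the day 2.5 libraries and 120 to 164 CPM (median 144) at day 4.5 (adjusted p 1.01e-16), with little spread between the 6 libraries. LGR5, an R-spondin receptor and WNT target, had 2.46 to 22 CPM (median 6.64) at day 2.5 and 0 to 1.16 CPM (median 0) at day 4.5 (adjusted p 1.01e-05). SFRP2, another secreted antagonist, and WLS, the carrier that WNT ligands need for secretion, fell, with log2 fold changes of −2.33 and −1.34. RSPO3, an R-spondin, rose with 0.308 to 15.3 CPM (median 4.54) at day 2.5 and 5.4 to 120.5 CPM (median 75.4) at day 4.5 (log2 fold change 3.67, SE 0.58, adjusted p 2.21e-06), and the days overlapped through the day 4.5 value of WT_TU_R1.

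Of 23 tested BMP pathway genes 7 rose and 6 fell. BMP4, the ligand supplied in the medium, had 510 to 834 CPM (median 579) at day 2.5 and 71 to 244 CPM (median 105) at day 4.5 (log2 fold change −2.23, SE 0.29, adjusted p 8.61e-08). BMP7 had 3.06 to 18.2 CPM (median 6.87) at day 2.5 and 107 to 245 CPM (median 146) at day 4.5 (log2 fold change 4.18, SE 0.41, adjusted p 8.51e-11), and BMP5 had 24.4 to 50.0 CPM (median 39) at day 2.5 and 112 to 231 CPM (median 138) at day 4.5 (log2 fold change 2.02, SE 0.20, adjusted p 1.46e-09). BMP4 fell as the other ligands rose, with no overlap in any of them. Modifiers moved too: the antagonist NOG (log2 fold change 2.30) and the pseudoreceptor BAMBI (1.43) rose, and the target genes MSX2 (−1.95) and ID1 (−1.38) fell. Antagonists went both ways, as GREM1, another antagonist, had the largest called fall on the list. GREM1 is left out of the counts of named genes. The lowest log2 fold change on the list was −4.51. BMP4 protein was in the medium at day 2.5, and transcript levels do not measure the supply of the ligand.

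Of the FGF list the counts were 6 rising and 7 falling of 23. The receptor FGFR1 had 276 to 355 CPM (median 324) at day 2.5 and 68.7 to 136 CPM (median 95.8) at day 4.5 (log2 fold change −1.65, SE 0.15, adjusted p 1.12e-11). ETV1, a transcription factor at the end of the pathway, rose with 16.4 to 30.5 CPM (median 23.3) at day 2.5 and 79 to 120.2 CPM (median 96.8) at day 4.5 (log2 fold change 2.06, SE 0.20, adjusted p 3.49e-11), and FGF9, a ligand made by heart muscle precursors and epicardium, went from 2 counts in all to 3.24 to 16.3 CPM (median 9.95) (adjusted p 4.25e-08). Of the NOTCH list 1 of 13 rose and 2 fell (1 without run A and 4 with replicate names as a block). The ligand DLL3 had 49 to 108 CPM (median 64.4) at day 2.5 and 3.96 to 19.8 CPM (median 9.47) at day 4.5 (log2 fold change −2.499, SE 0.33, adjusted p 1.04e-07). Of 17 tested retinoid genes 6 fell and 3 rose, or 2 and 2 without run A. CRABP1, a carrier of retinoic acid in the cytoplasm, had 4.42 to 35.7 CPM (median 22.1) at day 2.5 and 0 to 1.98 CPM (median 0.961) at day 4.5 (log2 fold change −4.28, SE 0.71, adjusted p 6.9e-06).

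Basement membrane genes rose, 10 of 15 tested with none falling, or 12 rising and 1 falling with replicate names as a block. LAMA4, a laminin chain of muscle and vessel membranes, had 0 to 0.698 CPM (median 0.154) at day 2.5 and 38.9 to 101 CPM (median 65.5) at day 4.5 (adjusted p 2.61e-14). NID2, which links laminin to collagen IV, had 6.79 to 42.8 CPM (median 23.3) at day 2.5 and 168 to 324 CPM (median 276) at day 4.5 (log2 fold change 3.501, SE 0.38, adjusted p 1.26e-09), and COL18A1, a collagen of the same layer, had 71.9 to 102 CPM (median 81.2) at day 2.5 and 160.3 to 255 CPM (median 198) at day 4.5 (log2 fold change 1.28, SE 0.19, adjusted p 1.2e-06). All 3 were higher in every day 4.5 library. The interstitial matrix list held 8 rising and 5 falling genes of 18. FN1, fibronectin, had 662 to 1466 CPM (median 846) at day 2.5 and 1728 to 5797 CPM (median 3589) at day 4.5 (log2 fold change 1.86, SE 0.24, adjusted p 4.08e-08). COL3A1 and COL2A1, fibrillar collagens, rose by 6.48 and 2.03 on the log2 scale, and MFAP4, a partner of elastic fibres, fell from 4.19 to 16.4 CPM (median 5.49) to no count, at least 5.2-fold.

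Of 10 tested hyaluronan genes 2 rose and 3 fell, 1 and 3 without run A and 2 and 5 of 8 with replicate names as a block. Over all genes tested 18.6% rose and 15.9% fell, 14.7% and 12.3% without run A, and 27.7% and 24.9% with the block. The synthase HAS2, the gene named in the knockout labels, had 369.9 to 869 CPM (median 716) at day 2.5 and 149.6 to 482 CPM (median 369) at day 4.5 (log2 fold change −0.92, SE 0.27, adjusted p 0.00668). It fell from a mean of 657 ± 192 to 339 ± 133 CPM (SD, n = 6 each), and its days overlapped. UGDH, which makes a sugar precursor of hyaluronan, fell with 57.2 to 106 CPM (median 74.4) at day 2.5 and 15.6 to 42.5 CPM (median 32.7) at day 4.5 (log2 fold change −1.28, SE 0.25, adjusted p 6.32e-05). VCAN, the proteoglycan versican that binds hyaluronan in the cardiac jelly, rose with 277 to 735 CPM (median 678) at day 2.5 and 918 to 2898 CPM (median 2093) at day 4.5 (log2 fold change 1.79, SE 0.29, adjusted p 4.43e-06). HMMR, listed as a hyaluronan receptor and also part of the mitotic spindle, fell (log2 fold change −1.98, SE 0.45, adjusted p 0.000528). HAPLN1, the link protein that ties versican to hyaluronan, was not called (adjusted p 0.0694). It was called with the run as a block (log2 fold change 0.67, adjusted p 0.0292) and in 4 fits that each left out 1 library (adjusted p 0.0307 to 0.0484).

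Of 16 tested genes on the integrin list 5 rose and 4 fell, beside 18.6% and 15.9% of all genes tested. ITGB1BP2, counted as rising, and ITGB3BP, counted as falling, are on the list but are not integrin subunits. Both are left out of the counts of named genes. ITGA5, a fibronectin receptor subunit, had 89.9 to 249 CPM (median 106) at day 2.5 and 24.4 to 81.7 CPM (median 41.1) at day 4.5 (log2 fold change −1.58, SE 0.32, adjusted p 0.000139). ITGA6 and ITGA7, laminin receptor subunits, had medians of 6.65 and 8.1 CPM at day 2.5 and 53.7 and 72.3 CPM at day 4.5, and rose by 3.26 and 3.31 on the log2 scale. In the epithelial list 5 of 15 fell and none rose, whereas with replicate names as a block 4 of 10 fell and 2 rose. KRT19, a keratin of simple epithelia, had 919 to 1443 CPM (median 1083) at day 2.5 and 181 to 270.3 CPM (median 200.1) at day 4.5 (log2 fold change −2.38, SE 0.23, adjusted p 4.57e-11), and KRT8 fell less (log2 fold change −1.14, SE 0.26, adjusted p 0.00045). The mesenchymal list had 4 up and 5 down of 11, with 3 down without run A and 3 of 9 with the block. SNAI2, a repressor active in epithelial-mesenchymal transition, had 18 to 49.2 CPM (median 38.5) at day 2.5 and 1.56 to 9.23 CPM (median 2.23) at day 4.5 (log2 fold change −3.54, SE 0.48, adjusted p 1.2e-07), and VIM, vimentin, had 1474 to 2698 CPM (median 2501) at day 2.5 and 472 to 984 CPM (median 812) at day 4.5 (log2 fold change −1.59, SE 0.21, adjusted p 1.34e-07).

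Genes of DNA replication and mitosis fell in nearly every member of their lists. In the DNA replication list 36 of 36 tested genes fell (34 without run A), and 32 did not overlap between the days, at a median log2 fold change of −1.86. In the mitosis list 30 of 31 fell, also without run A, and 19 did not overlap, at a median of −1.499. The exception was PRC1, with a log2 fold change of −1.002 (adjusted p 0.137, or 0.00575 with replicate names as a block).

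MCM3, a subunit of the replicative helicase, had 219.7 to 309 CPM (median 252) at day 2.5 and 83.4 to 113 CPM (median 104) at day 4.5 (log2 fold change −1.29, SE 0.13, adjusted p 1.04e-10). RRM2, the regulated subunit of ribonucleotide reductase, had 62.8 to 149.6 CPM (median 76.7) at day 2.5 and 6.93 to 23.4 CPM (median 15.6) at day 4.5 (log2 fold change −2.53, SE 0.36, adjusted p 3.5e-07). TTK, a kinase of the spindle checkpoint, had 42 to 73.5 CPM (median 58.8) at day 2.5 and 2.88 to 17.6 CPM (median 14.4) at day 4.5 (log2 fold change −2.32, SE 0.31, adjusted p 9.63e-08), and CDC20, the activator that ends metaphase, had 97.9 to 281 CPM (median 115) at day 2.5 and 25.1 to 66.2 CPM (median 37.3) at day 4.5 (log2 fold change −1.84, SE 0.34, adjusted p 3.5e-05). None of these 4 overlapped between days. TOP2A, the topoisomerase that untangles chromosomes, overlapped through run A, whose day 2.5 libraries held 907 and 895 CPM against 2120 to 2548 CPM elsewhere (log2 fold change −1.49, SE 0.40, adjusted p 0.00271). Summed over the mitosis list, levels went from 4761 to 8944 CPM at day 2.5 to 1385 to 3724 CPM at day 4.5. Among cyclins and their inhibitors the counts were 6 falling and 3 rising of 21, 5 falling and 1 rising without run A, and 11 falling with replicate names as a block. CCND1 and CCND2, cyclins of the G1 phase, fell (−2.54 and −1.42 on the log2 scale), and CDKN1B, the inhibitor p27, rose (log2 fold change 0.94, SE 0.21, adjusted p 0.000422).

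**Figure D4:**
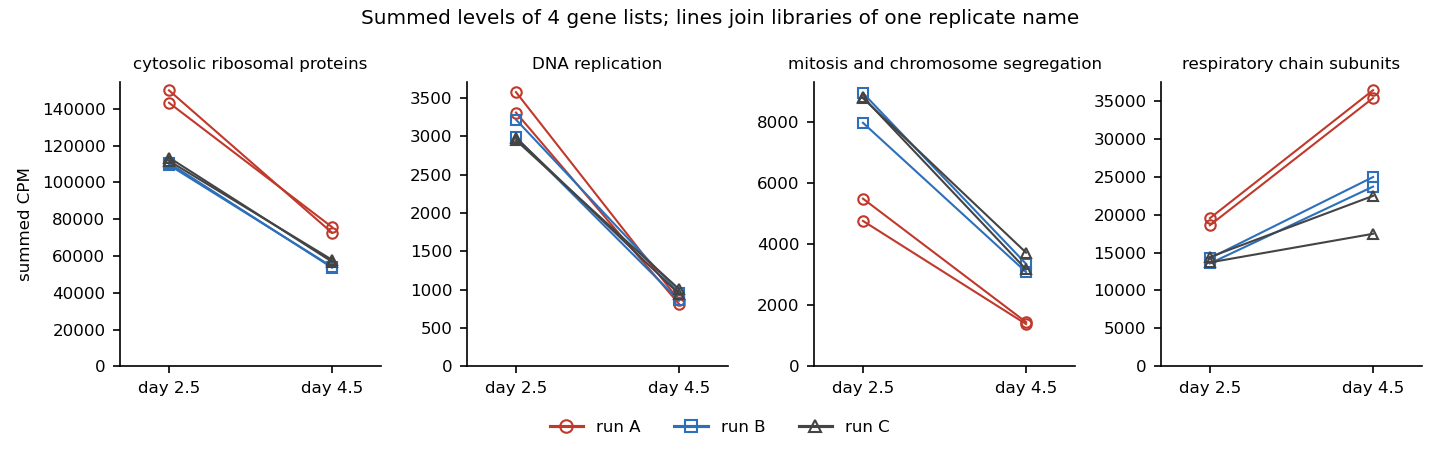
Summed CPM of 4 gene lists in each wild-type library, with a line for each replicate name from day 2.5 to day 4.5 and colours for the runs. For the ribosomal, mitosis and respiratory lists run A (red) lies apart from the others at both days, and within each list the direction is the same in all 6 names.

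Promoters of mitotic genes are shown for the elements they share, the CCAAT box bound by NF-Y and the cell cycle homology region (CHR, TTTGAA), where repressor complexes of non-dividing cells are known to bind. CCNB2, cyclin B2, and PLK1, a mitotic kinase, were chosen after their values were seen. CCNB2 had 108 to 154 CPM (median 126) at day 2.5 and 31.3 to 48.1 CPM (median 37) at day 4.5 (log2 fold change −1.69, SE 0.21, adjusted p 1.8e-08), and PLK1 had 104 to 485 CPM (median 124) at day 2.5 and 33.9 to 169 CPM (median 63.3) at day 4.5 (log2 fold change −1.25, SE 0.44, adjusted p 0.0248), overlapping between days. The fall of PLK1 was not called without WT_R1 or WT_TU_R1 at day 2.5 (adjusted p 0.071 and 0.142) or without WT_R2, WT_TU_R2 or TNT2 at day 4.5 (0.0651, 0.0594 and 0.062), and with replicate names as a block its adjusted p was 6.46e-07. Capitals mark CCAAT and TTTGAA in the last 120 bases before the start.
CCNB2, chr15:59105026-59105145, plus strand: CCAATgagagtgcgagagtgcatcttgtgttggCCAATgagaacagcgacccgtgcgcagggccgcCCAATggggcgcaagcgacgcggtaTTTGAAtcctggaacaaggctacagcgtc
PLK1, chr16:23678769-23678888, plus strand: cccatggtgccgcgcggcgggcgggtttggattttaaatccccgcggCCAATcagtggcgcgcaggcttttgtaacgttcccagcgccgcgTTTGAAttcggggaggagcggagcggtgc

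In both promoters TTTGAA stands 29 to 24 bases before the start, and CCNB2 has 3 CCAAT boxes upstream of it. Over the mitosis list, 17 of 25 promoters (68%) held TTTGAA on either strand and 19 (76%) held CCAAT. In the replication list TTTGAA was in 1 of 32 (3.12%) and CCAAT in 19 of 32 (59.4%). Among genes tested the shares were 9.6% and 36.9%, and among all promoters 15.4% and 35.7%. TTTGAA shares letters with the TCF/LEF site, and a CCAAT can lie within a CArG box.

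Ribosomal protein genes fell together, 71 of 78 tested (68 without run A) with none rising, at a median log2 fold change of −0.95. Summed over the list they made up 109495 to 150070 CPM at day 2.5 and 53687 to 75727 CPM at day 4.5. RPS6, a protein of the small subunit, had 2418 to 3518 CPM (median 3443) at day 2.5 and 831 to 1292 CPM (median 1145) at day 4.5 (log2 fold change −1.498, SE 0.15, adjusted p 2.47e-10). Many of these genes have processed copies elsewhere in the genome, and how the authors' counting treated reads that match several places is not given in the sources used here.

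Genes of energy metabolism rose in 3 lists. Of the nuclear subunits of the respiratory chain 50 of 79 tested rose (40 without run A) and none fell (62 and 1 of 75 with replicate names as a block). COX6A2, the muscle form of a cytochrome oxidase subunit, had no count at day 2.5 and 0.659 to 40.3 CPM (median 14.2) at day 4.5, at least 12.3-fold higher, and ATP5MC1, a ring subunit of ATP synthase, had 69.7 to 109.6 CPM (median 82.5) at day 2.5 and 287 to 452 CPM (median 429) at day 4.5 (log2 fold change 2.27, SE 0.20, adjusted p 2.76e-12). In the list of the citric acid cycle and fatty acid oxidation 20 of 30 rose (17 without run A), and with the block 23 rose and 1 fell of 28. IDH3A, a subunit of isocitrate dehydrogenase, had 15.4 to 27.5 CPM (median 23.2) at day 2.5 and 145 to 266 CPM (median 178) at day 4.5 (log2 fold change 3.15, SE 0.20, adjusted p 1.24e-15). Glycolysis and hypoxia genes rose too, 17 of 26 (14 without run A), and the largest rise there was that of PDK1, the kinase that turns pyruvate away from the mitochondrion, with 18.4 to 27.8 CPM (median 24.2) at day 2.5 and 285 to 919 CPM (median 549) at day 4.5 (log2 fold change 4.70, SE 0.33, adjusted p 1.2e-14). The glycolytic enzymes GPI and HK1 and the growth factor VEGFA had log2 fold changes of 2.42, 2.29 and 1.97.

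Genes of the mitochondrial genome were not called in the main fit, 0 of 12 tested (edgeR), whereas with replicate names as a block 7 of 11 were higher at day 4.5, beside 27.7% of all genes in that fit. Sterol and fatty acid synthesis held 4 rising and 7 falling genes of 28, 2 and 4 without run A, and 8 and 11 with the block. FADS1, a fatty acid desaturase, had 771 to 1352 CPM (median 1228) at day 2.5 and 270.5 to 597 CPM (median 448) at day 4.5 (log2 fold change −1.35, SE 0.17, adjusted p 1.87e-08), and ACLY, which supplies acetyl-CoA to the pathway, fell by 1.15.

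Cytoskeletal genes under SRF, many of them known from smooth muscle, held 7 rising genes of 17 and none falling, or 9 rising and 3 falling with replicate names as a block. ACTA2, smooth muscle actin and also an early actin of heart muscle, had 0 to 1.47 CPM (median 0.818) at day 2.5 and 280.1 to 1134 CPM (median 820.1) at day 4.5 (log2 fold change 9.87, SE 0.64, adjusted p 1.38e-15), and LMOD1, a nucleator of actin filaments, had 1.23 to 7.85 CPM (median 3.74) at day 2.5 and 121 to 199 CPM (median 142) at day 4.5 (log2 fold change 5.31, SE 0.35, adjusted p 2.61e-14). Guidance molecules moved both ways, 13 up and 13 down of 53, beside 18.6% and 15.9% of all genes tested. EPHA7, an ephrin receptor, had 4.77 to 12.2 CPM (median 7.22) at day 2.5 and 144 to 225 CPM (median 185) at day 4.5 (log2 fold change 4.62, SE 0.30, adjusted p 1.24e-15). SLIT2, a secreted guidance cue, rose by 3.08, and SEMA5B and SEMA3E, semaphorins, fell (log2 fold changes −5.25 and −2.60).

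The labelled cell type was checked with marker lists. Summed CPM of 8 cardiomyocyte markers went from 365 to 2798 at day 2.5 to 24474 to 56281 at day 4.5, and 8 of 8 rose. Of 8 stem cell markers 7 fell, and their sum went from 995 to 1250 CPM to 269.9 to 369.8 CPM. Of 10 endothelial markers 3 passed the filter, and PECAM1 had at most 5.78 CPM. The 10 endoderm and liver markers summed to 8.16 to 70.95 CPM at day 2.5 and 40.9 to 113.3 CPM at day 4.5. Of 8 tested 5 rose and 1 fell (4 and 0 of 7 without run A), and APOA1, an apolipoprotein, was among those that rose, with 2.14 to 5.61 CPM (median 3.71) at day 2.5 and 32.2 to 68.2 CPM (median 48.8) at day 4.5 (log2 fold change 3.61, SE 0.33, adjusted p 1.45e-11), while HNF4A had at most 2.47 CPM. No epicardial marker of 6 passed the filter. Of 8 blood markers 1 passed, and PTPRC had no count. Paraxial mesoderm and ectoderm markers summed to at most 92.2 and 91.9 CPM at day 2.5 and 6.48 and 24.5 CPM at day 4.5. Smooth muscle and fibroblast markers had sums of 308 to 628 CPM at day 2.5 and 1306 to 2340 CPM at day 4.5, and 3 of 6 tested rose and 1 fell. Among them PDGFRB, a receptor of pericytes and mesenchyme, fell (log2 fold change −4.68, SE 0.45, adjusted p 5.32e-11), and COL1A1 rose (log2 fold change 1.90, SE 0.31, adjusted p 5.38e-06). The part of such cells in the results above was not tested.

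The same interval was measured again in the untreated libraries of the enzyme arm, which share no library with the wild-type ones. The sets do share line names. WT occurs in both, and library names of the untreated TNNT2 line read TNT2, as does a wild-type replicate name. In the untreated libraries 2935 of 12748 genes tested (23%) were called, 1525 (12%) higher and 1410 (11.1%) lower at day 4.5. Among 12566 genes tested in both sets, 2066 were called in both, which is 46.9% of the 4407 wild-type calls and 71% of the 2910 untreated calls. Of these 2064 had the same direction. CMIP and METAP1, named after their values were seen, were called in opposite directions. Both rose in wild type and fell in the untreated libraries, by less than 2-fold each way, and the wild-type call of CMIP was lost without any 1 of 7 libraries (adjusted p at most 0.127). Of 2848 wild-type calls of at least 2-fold 2732 (95.9%) had the same sign in the untreated libraries. Across genes, which are not independent replicates, Pearson's r of the log2 fold changes was 0.841 and Spearman's rho 0.693.

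By gene, the untreated log2 fold changes were 9.64 for MYH6, 8.46 for TNNT2, 3.88 for MEF2C and 1.88 for TBX5 (adjusted p 2.62e-06, 1.27e-07, 8.69e-05 and 0.00011). GJA1 fell there too (−3.43, adjusted p 1.94e-06), as did BMP4 (−2.95, 0.00392), POU5F1 (−5.53, 6.95e-05) and HAS2 (−1.33, 0.00172). Of 145 genes named here, called in wild type and tested in the untreated libraries, 127 were called there, and CMIP, METAP1 and SFRP5 had the other sign. The 18 not called include ISL1 (log2 fold change −0.41, adjusted p 0.574, the others in this order), MIXL1 (0.42, 0.614), CFC1 (−2.60, 0.0512), ID1 (−0.64, 0.139), MSX2 (−1.41, 0.0817), INHBA (1.54, 0.105) and SFRP5 (1.18, 0.146). The remaining ones are CCND2, COL18A1, COX6A2, FOXC2, IRX4, PDGFRA, SFRP2, TBX2, TBX6, TDGF1 and UGDH. Over all wild-type calls tested in both sets, 46.9% were called in the untreated libraries. Named genes were chosen in part by the size of their wild-type change, so their share does not stand for all calls. By list, 20 of 79 respiratory subunits rose and 2 fell, 8 of 25 glycolysis genes rose, and 41 of 77 ribosomal protein genes fell. Of 12 mitochondrially encoded genes 5 were lower at day 4.5 in these libraries. Whether the steps differ between the sets was not tested.

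**Figure D5:**
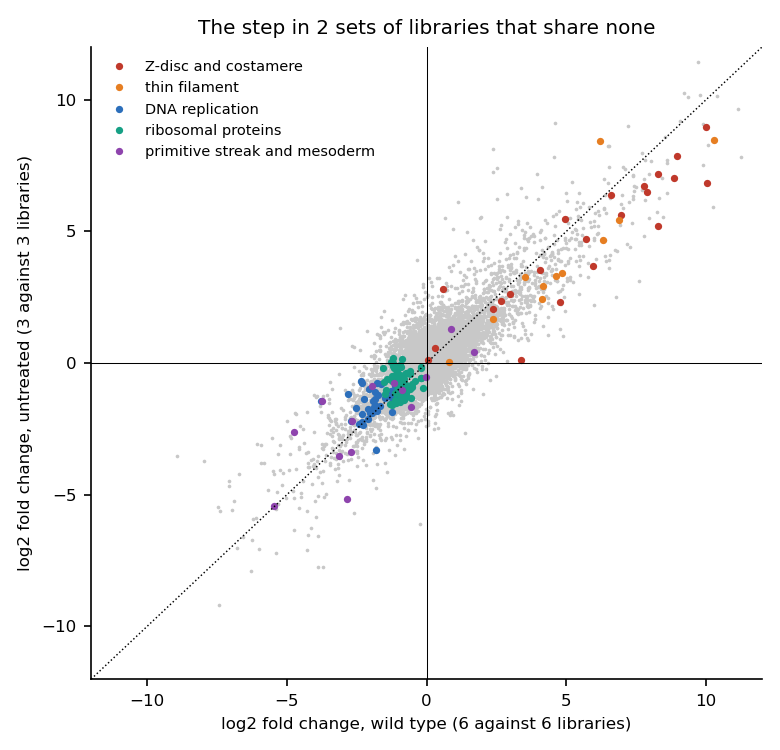
Log2 fold change from day 2.5 to day 4.5 for each gene tested in both sets, wild-type libraries on the horizontal and untreated libraries on the vertical axis, with 5 lists in colour and a dotted line of equality. Points follow the line (r = 0.841 across genes), with Z-disc and thin filament genes at the upper right and replication, ribosomal and streak genes at the lower left.

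The step was also set against that of the libraries labelled HAS2 knockout, whose label the counts of HAS2 do not check. For HAS2 itself no difference of steps was called (0.22), a value that compares changes over time and not levels. At each day the libraries labelled KO were cl4_R1 in run A, cl4_R2 in run B, and cl4_R3, cl14_R1, cl46_R1 and cl51_R1 in run C. The name cl4 thus recurs, and the runs are not balanced as in wild type. The difference between the steps was called for 84 of 13797 genes (0.609%), 46 higher (0.333%) and 38 lower (0.275%) in the libraries labelled KO. That count was 441 with replicate names as a block, 43 without the KO library cl46_R1 at day 4.5, 48 without cl51_R1 and 143 without the WT library cl43_WT_UT at day 4.5. MEF2C and TBX5, which rose in wild type, rose further in libraries labelled KO, where the log2 fold changes were 6.74 and 5.005 (difference 1.96, SE 0.44, adjusted p 0.0205 and 2.05, SE 0.45, adjusted p 0.0242). ISL1, PDGFRA and SFRP5 fell in wild type and had positive log2 fold changes in libraries labelled KO (1.04, 0.55 and 0.72). The differences were 2.19, 1.72 and 2.29 (adjusted p 0.0205, 0.00168 and 0.0161). The wild-type fall of ISL1 was not called without run A. In the untreated libraries no fall of ISL1, PDGFRA or SFRP5 was called, and SFRP5 had the other sign. Without the KO library cl46_R1 at day 4.5 the differences of ISL1, SFRP5 and TBX5 were not called (adjusted p 0.0583, 0.0533 and 0.0533), nor was that of TBX5 without the WT library WT_R1 at day 2.5 (0.0518). MIXL1 went the other way (−1.17, difference −2.87, adjusted p 0.00136).

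The largest fitted differences were those of CORIN, TDGF1 and PPFIA4 on the low side and KCNAB1, RGS4 and CBLN2 on the high side (adjusted p 0.00251, 0.0159, 0.00142, 0.00828, 0.0269 and 0.0202). CORIN, the protease that activates natriuretic peptides, had 0 to 0.617 CPM (median 0) at day 2.5 and 3.96 to 36.3 CPM (median 8.1) at day 4.5 in wild type, and means of 3.23 and 2.2 CPM in libraries labelled KO. The mean of KCNAB1, a potassium channel subunit, went from 9.03 to 0 CPM in wild type and from 7.83 to 3.5 CPM in libraries labelled KO. BMP5 rose more in those libraries (difference 1.59, adjusted p 0.00318). SEMA3E, which fell in wild type, was nearer to its day 2.5 level there (−0.49, difference 2.10, adjusted p 0.000503). For the contractile genes MYH6, TNNT2, ACTN2 and TTN no difference of steps was called (adjusted p 0.227, 0.092, 0.712 and 1).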

How the data were processed

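The 12 libraries were grouped by title. Per the submitters' processing notes, the authors' deposited table holds whole-number read counts per gene, made with featureCounts of Subread 1.6.2 on hg38/GRCh38. The aligner and its settings are not given in the sources used here. All 58735 gene IDs matched GENCODE 29, which gave the symbols. The table has 4 columns of no listed sample, which were not used.

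Counts were fitted with edgeR 4.0.16 (R 4.3.3, TMM scaling, robust quasi-likelihood test, filterByExpr with a minimum count of 10) with 1 mean per group over the 41 libraries of the genotype arm. P-values were adjusted by Benjamini-Hochberg over 13797 genes, and adjusted p in the text are from this test unless another setting is named. CPM scale each count to the total of its library, and are not compared between genes. The untreated step was fitted the same way in the 24 libraries of the enzyme arm. P-values measure the spread between libraries. A fold against libraries that are all at 0 is a bound, with 3 counts per library. Each replicate name was treated as the same line and repeat at both days, which the labels do not state. Deviations from the group means correlated between days for each of the 6 names (r 0.344 to 0.719), each name best with itself. Differences in level between runs enter these correlations, and the highest r, 0.719 and 0.713, were those of the run A names. Alternatives were RLE factors, no filter, DESeq2 1.42.0, replicate and run blocks, other sets of libraries, and leaving out each library. In simulated data on 13526 genes, 40 of 100 genes changed 2-fold and 89 of 100 changed 4-fold were recovered.

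Genes named were the 10 largest rises and falls among protein-coding genes called and not overlapping, members of each list by size of change and by level, marker genes, HAS2 and the largest differences from the libraries labelled KO. Members and lists were chosen with earlier results of these data known. Promoters are from RefSeq (GRCh38.p14), matched by symbol.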

Additional observations from a re-analysis of the deposited data

Results flagged for a closer look

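Among 312 sets of 6 values (156 genes named and tested, at each day), 25 held a library that lay far from the other 5 on the log2 scale. About 1 in 20 sets would do so by chance if values were normally spread. Sets in which the other 5 libraries were at 0, such as those of ANPEP, CIROP and LGR5, are flagged by any count. That rate does not apply to them.

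The library cl43_WT_UT at day 4.5 was low for genes of muscle and energy metabolism. It had 4602 CPM of MYH6 where the other 5 libraries had 6813 to 8600 CPM, 1693 CPM of MYL7 against 3788 to 5466, and 56.7 CPM of SMPX against 156.9 to 288.9. It also had 42.2 CPM of HSPB7 against 136.8 to 199.6, 287 CPM of ATP5MC1 against 371 to 452, and 434 CPM of GPI against 672.7 to 859.7. It was high for SNAI2, a gene of migrating mesenchyme, with 9.23 CPM against 1.562 to 2.505. At day 2.5 the library of that name held the lowest level of MIXL1 (0.51 CPM against 2.792 to 5.139) and the 1 count of HSPB7 (0.51 CPM).

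The library TNT2 at day 4.5 held 8.66 CPM of EOMES, with at most 0.7197 CPM in the others. It also held the few counts of LGR5 (1.16 CPM), ANPEP (0.578 CPM) and CIROP (0.578 CPM), genes at 0 elsewhere at that day, and at day 2.5 those of FGF9 (0.983 CPM). The library WT_TU_R1 was lowest at day 2.5 for NEXN (73.7 CPM against 134.8 to 173.6), PDLIM5 (24.7 against 48.51 to 68.32), FST (1.23 against 7.133 to 14.28) and ACTN2 (0 against 0.4916 to 0.7341), and at day 4.5 for RSPO3 (5.4 against 43.2 to 120.5). The library WT_R1 was highest at day 4.5 for HAND1 (711 CPM against 284.9 to 405.5) and lowest at day 2.5 for SNAI2 (18 CPM against 37.63 to 49.22). Single or few counts set it apart for ACTA1 (1.84 CPM) and SMPX (0.367 CPM) at day 2.5 and ZFP42 (0.312 CPM) at day 4.5, as they did WT_TU_R2 for CD177 (0.626 CPM) at day 4.5.

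For 18 named genes the step in libraries labelled KO differed from the wild-type step (edgeR, adjusted p under 0.05), beside 84 of all 13797 genes tested (0.609%). CORIN, TDGF1, PPFIA4, KCNAB1, RGS4 and CBLN2 were named because of this difference, so the count of 18 is not to be read against that share. The fitted log2 difference was positive for KCNAB1 (5.908), RGS4 (4.691), CBLN2 (4.517), SFRP5 (2.294), ISL1 (2.194), SEMA3E (2.103), TBX5 (2.050), MEF2C (1.960), PDGFRA (1.716), BMP5 (1.589) and BAMBI (1.060). It was negative for CORIN (-6.147), TDGF1 (-4.299), PPFIA4 (-3.752), MIXL1 (-2.866), COL2A1 (-1.194), GPI (-1.189) and SFRP1 (-1.093). Those of KCNAB1 and CORIN rest on a wild-type group with 0 to 3 counts, so their size depends on the prior count. Of 30 alternatives, the call was lost in 20 for SFRP1 and GPI, in 16 for BAMBI, in 10 for COL2A1 and in 7 for RGS4.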

How the results depend on the processing

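The count of genes called between the days stayed within 1.5 times the main count of 4756 in every alternative run, from 3371 within run C to 5930 with the run as a block. It was 5065 with DESeq2, 3430 with the 12 wild-type libraries alone, 3677 without run A (chosen after seeing the data), 4443 to 4606 without 1 library, and 5812 with replicate names as a block. A similar count does not mean the same genes. Calls shared with the main fit numbered 2702 within run C, 3351 with the 12 libraries alone and 3848 with replicate names as a block. Those fits tested 11517, 11051 and 11051 genes, and the main fit 13797. Of 149 named genes called, 136 remained called in the same direction in every one of the 22 alternatives that tested them. Named genes were chosen in part by the size of their change in the main fit, so this share does not stand for all calls. The 13 others lost the call in at least 1, and none changed sign. All 7 named genes not called passed the threshold in at least 1 alternative, and HAND1 changed sign within run C (log2 fold change 0.103). The medians of 14 of 47 lists changed sign in at least 1 alternative, among them the mesenchymal and interstitial matrix lists. The largest absolute main median among these lists was 3.25, that of the endoderm and liver markers. The count of genes whose step differed in libraries labelled KO (84) was 196 with DESeq2, 441 with replicate names as a block, 318 with the run as a block, 58 without a filter, and 43 to 143 without 1 library, for causes not tested. The untreated count of 2935 was 2088 to 2399 without 1 library. At the depth of these libraries a gene with no count in a group is only bounded, at a mean of 1.54 CPM at day 2.5 and 1.59 CPM at day 4.5.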
